A study of Homo sapiens with 2 samples.

Results

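The complement components and regulators described here are 9 genes of the 63677 in the deposited count table: C1R, C1S, C3, C4A, C4B, CFB, SERPING1, CD46 and CD55. They were taken by Ensembl identifier from a named list that was drawn up with the difference between these libraries in view, so their values below are a description and carry no test. RNA was sequenced from 1 culture of the human gastric carcinoma line HGC-27 transfected with the plasmid pcDNA3.1-lncPSCA, which expresses the long non-coding RNA lncPSCA, and from 1 control culture of the same line transfected with the empty plasmid pcDNA3.1. Both cultures received INTERFERin as the transfection reagent and were collected 48 hours later. Each group has 1 library, so no difference has a replicate check, no p-value is given, and every interval covers counting error only.

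Complement is a chain of blood-borne and cell-surface proteins that tags targets for removal or punctures their membranes. In the classical pathway the proteases C1r and C1s, held together by C1q, cut C4 and C2, and the fragments form an enzyme that cuts C3. In the alternative pathway factor B, the product of CFB, joins a fragment of C3 to make a second such enzyme. SERPING1 encodes C1 inhibitor, which inactivates C1r and C1s, while CD46 and CD55 protect the cell's own membrane: CD46 helps factor I to cut deposited C3b and C4b, and CD55 speeds the decay of the C3-cutting enzymes. The liver makes most of the circulating proteins, but many other cell types make some of them, and several of these genes are known to be inducible by interferons and inflammatory cytokines.

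C4A and C4B are neighbouring copies on chromosome 6, and their rows share reads. Their longest coding sequences in GENCODE release 29 were both 5232 bases long and were identical at 5219 positions (99.8%). Of all 50-base windows of the C4A coding sequence, 93.6% occurred unchanged in C4B, and 83.1% of all 150-base windows did. The stretch below, coding bases 3338 to 3397 counted from the start codon, holds 5 of the 13 differences. It covers the site that defines the C4A and C4B protein isotypes. It is shown because only reads over such positions can be assigned to 1 of the genes, and capitals mark the bases that differ.
C4A: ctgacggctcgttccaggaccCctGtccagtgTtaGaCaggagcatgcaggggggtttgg
C4B: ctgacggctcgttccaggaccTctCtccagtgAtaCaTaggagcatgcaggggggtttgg
How reads that match both genes were treated is not given in the sources used here, so the 2 rows are uncertain as separate values and their sum is given beside them.

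RefSeq promoter sequences (GRCh38.p14) were matched for 4 of the 9 members: C1R, CFB, CD46 and CD55. C1S, C3, C4A, C4B and SERPING1 are named only. The 250 bases before each start were searched on both strands for 3 motifs: GAAANNGAAA, a form of the interferon-stimulated response element; TTCNNNGAA, the gamma-activated site bound by STAT dimers, which reads the same on both strands; and the kappa-B consensus. CFB held all 3 motifs without overlap between them, and the second of 2 windows of C1R held the gamma-activated site. The first window of C1R, both windows of CD46 and the window of CD55 held none of these letters. Over all 35116 windows of the same length, 3.02% held the first motif, 6.57% the second and 9.96% the third. A match describes letters only. The windows of CFB and C1R with matches are shown with the matches in capitals, and that of CD55 is shown as a window without one.
CFB, chr6:31945845-31946094, plus strand: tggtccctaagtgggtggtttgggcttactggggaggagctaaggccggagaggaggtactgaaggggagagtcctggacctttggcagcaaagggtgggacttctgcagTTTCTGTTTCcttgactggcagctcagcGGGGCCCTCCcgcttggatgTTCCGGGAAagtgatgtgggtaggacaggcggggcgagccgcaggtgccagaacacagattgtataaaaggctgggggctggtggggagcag
C1R, chr12:7091894-7092143, minus strand: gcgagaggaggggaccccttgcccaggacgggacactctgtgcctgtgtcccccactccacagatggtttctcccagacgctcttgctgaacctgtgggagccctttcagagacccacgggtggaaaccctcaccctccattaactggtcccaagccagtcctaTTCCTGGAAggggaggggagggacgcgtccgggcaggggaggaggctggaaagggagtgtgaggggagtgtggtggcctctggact
CD55, chr1:207321428-207321677, plus strand: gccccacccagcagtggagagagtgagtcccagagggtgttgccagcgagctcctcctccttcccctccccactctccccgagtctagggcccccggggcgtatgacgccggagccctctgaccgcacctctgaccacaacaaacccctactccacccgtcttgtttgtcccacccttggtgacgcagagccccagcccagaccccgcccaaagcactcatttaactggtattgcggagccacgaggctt
In CFB the response element, on the antisense strand, lay at bases -140 to -131 from the start, the kappa-B site at -112 to -103 and the gamma-activated site at -92 to -84. In C1R the gamma-activated site lay at -86 to -78.

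The lncPSCA library had 23016646 counts in all and reads from 25900 genes, against 21552098 counts and 24792 genes for the control library. No row is named lncPSCA, so the transfected RNA itself was not matched. PSCA, the gene it is named after, had 28699 reads in the lncPSCA library and 22 in the control library. Whether reads of the transfected RNA were counted on the PSCA row was not tested, so these counts are not read as a change of PSCA itself. The gastric carcinoma label was set against marker lists: of 5 epithelial markers (EPCAM, KRT8, KRT18, KRT19 and CDH1), the sum was 3.62 CPM (reads of a gene per 1000000 reads of the library, after TMM scaling) in lncPSCA and 4.93 CPM in control, and EPCAM had 7 reads in each. KRT18 and KRT19 had no read in lncPSCA and 4 and 1 in control, while KRT8 (2.47 CPM in lncPSCA and 3.13 CPM in control) and CDH1 (0.851 and 1.23 CPM in lncPSCA and control) had a mean above 1 CPM. The 7 fibroblast markers described below summed to 3310 CPM in lncPSCA and 2979 CPM in control, so both libraries held far more of them than of the epithelial markers. Which cells these reads came from was not tested.

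A gene is called higher or lower in lncPSCA when its mean over both libraries is at least 1 CPM, the ratio is at least 2-fold on a scale with 1 read added to each count, and the 95% counting interval of the fold lies wholly beyond 1.5-fold. Over all 15440 genes that reached 1 CPM, 3.02% were higher and 0.596% were lower. Of the 9 members, 8 reached 1 CPM; SERPING1, C4A, C4B and C3 were the 4 called higher, no member was called lower, and C1R, C1S, CD46 and CD55 were not called. CFB, at a mean of 0.804 CPM, fell under the minimum. C3 and SERPING1 reached it through the lncPSCA library alone, since both were under 1 CPM in control. Because the members were chosen on this contrast, nothing is read from their share against the background. The median log2 ratio of the 8 was 1.68, from -0.14 for CD55 to 4.18 for SERPING1, beside -0.02 over all 15440 genes. That choice bears on the members' median too, so nothing is read from its distance to the median over all genes. With a minimum of 5 CPM the members' median was 0.90.

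**Figure D1:**
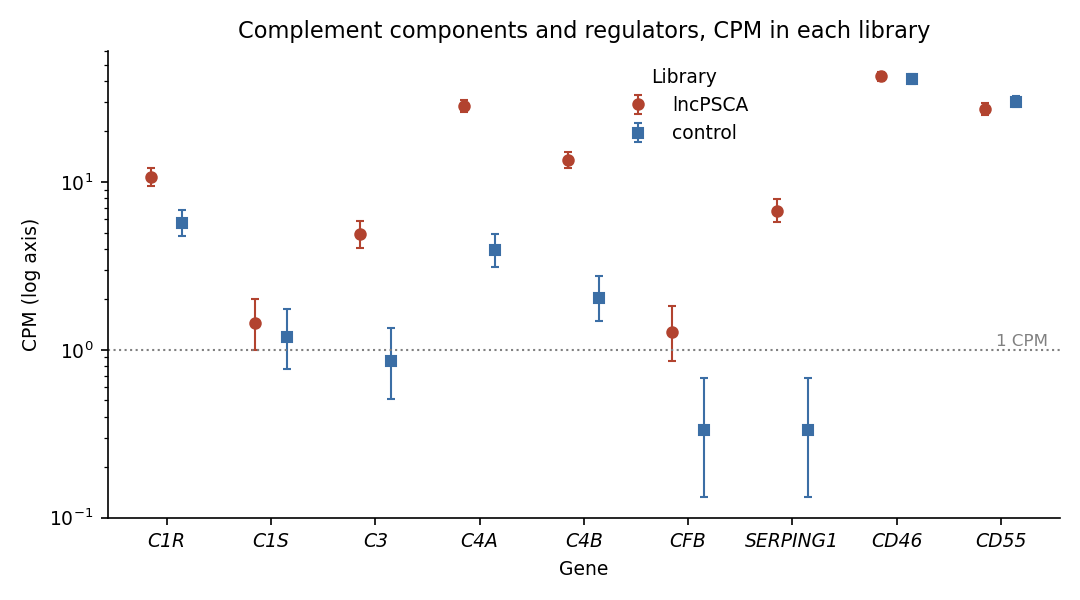
CPM of each of the 9 members in the lncPSCA library (circles) and the control library (squares) on a log axis; bars are 95% Poisson counting intervals. The 2 symbols lie far apart for SERPING1 (6.76 and 0.332 CPM), C4A, C4B and C3, and close together for CD46 (42.5 and 41.2 CPM), CD55 and C1S.

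Neither of the initiating proteases met the rule, although C1R came close to it. C1R, which activates itself and then cuts C1s, had 253 reads in lncPSCA and 121 in control, or 10.8 and 5.73 CPM. The fold was 1.88 (95% counting interval 1.51 to 2.35), just under the 2-fold limit. C1S, the protease that cuts C4 and C2, had 34 reads in lncPSCA and 25 in control, or 1.45 and 1.18 CPM. Its fold was 1.22 (0.707 to 2.13), an interval that holds both no difference and a doubling, so a difference was not detectable at this depth. C1R made up 88.2% of the reads of the pair in lncPSCA (exact binomial interval 83.8% to 91.7%) and 82.9% in control (75.8% to 88.6%), and these intervals overlap; such shares of reads are not adjusted for length. C1R shares 3021 bases of its span with C1RL on the same strand, and C1S overlaps EMG1 and LPCAT3, so reads over the shared parts may be assigned to either gene or to none.

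The thioester proteins, which bind covalently to targets once cut, were all higher in lncPSCA. C4A had 667 reads in lncPSCA and 83 in control, or 28.4 and 3.93 CPM. C4B had 318 reads in lncPSCA and 43 in control, or 13.5 and 2.04 CPM. The folds were 7.21 (5.73 to 9.17) for C4A and 6.64 (4.82 to 9.35) for C4B, with intervals that overlap. Summed over both rows, which does not depend on how shared reads were split, C4 had 985 reads in lncPSCA and 126 in control, a fold of 7.02 (5.82 to 8.51). C4A took 67.7% of these reads in lncPSCA (64.7% to 70.6%) and 65.9% in control (56.9% to 74.1%), so the recorded split was alike within counting error. C3, the protein on which the classical, lectin and alternative pathways converge, had 115 reads in lncPSCA and 18 in control, or 4.89 and 0.853 CPM. Its fold was 5.73 (3.47 to 10.0). C3 shares 649 bases with GPR108 on the same strand, a gene with 1502 reads in lncPSCA and 1198 in control.

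Few reads came from CFB, the protease of the alternative pathway. It had 30 reads in lncPSCA and 7 in control, or 1.28 and 0.332 CPM. The fold was 3.85 (1.66 to 10.4), and CFB was not called because its mean was under 1 CPM. The annotated gene ENSG00000244255 overlaps nearly all of CFB on the same strand (6399 bases) and had no reads in either library. How reads that fall on both genes were counted is not stated in the sources used here, so the level of CFB is uncertain in both libraries.

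SERPING1 had the largest ratio of the members. The C1 inhibitor gene had 159 reads in lncPSCA and 7 in control, or 6.76 and 0.332 CPM. The fold was 20.4, and with only 7 control reads its interval ran from 9.67 to 51.5. By log2 ratio SERPING1 stood at rank 39 of the 15440 genes, C4A at rank 74, C4B at 82 and C3 at 95. Of the reads of the inhibitor and its 2 target proteases together, SERPING1 took 35.7% in lncPSCA (31.2% to 40.3%) and 4.58% in control (1.86% to 9.20%), a share of reads that is not adjusted for length and that the choice of SERPING1 on this contrast bears on. No gene in GENCODE release 29 overlaps SERPING1 among the rows of the table.

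The membrane regulators among the members, CD46 and CD55, were near equal in both libraries. CD46, the cofactor for factor I, had 1000 reads in lncPSCA and 870 in control, or 42.5 and 41.2 CPM, a fold of 1.03 (0.941 to 1.13). Its log2 ratio of 0.04 turned to -0.15 when ratios were centred along transcript length. CD55, decay-accelerating factor, had 640 reads in lncPSCA and 635 in control, or 27.2 and 30.1 CPM, a fold of 0.905 (0.809 to 1.01). The intervals of both genes exclude a 1.5-fold difference in either direction for counting error. Summed, the 7 other members had 1576 reads in lncPSCA and 304 in control, while CD46 and CD55 had 1640 in lncPSCA and 1505 in control. The membrane regulators thus made up 51.0% of the reads of all 9 members in lncPSCA (49.3% to 52.7%) and 83.2% in control (81.4% to 84.9%). The choice of the members on this contrast bears on this share, so nothing is read from the difference. The share is also not adjusted for length.

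**Figure D2:**
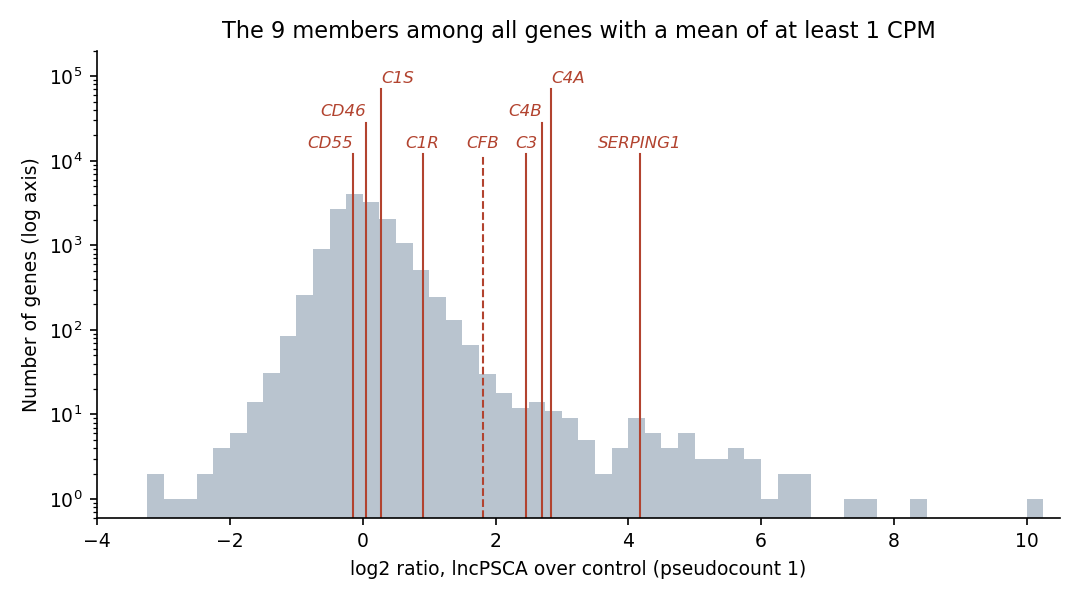
Number of genes (log axis) by log2 ratio of lncPSCA over control, for the 15440 genes with a mean of at least 1 CPM in bins of equal width; lines mark the members, dashed for CFB, which is under 1 CPM. CD55, CD46 and C1S lie inside the bulk of genes, C1R on its upper shoulder, and C3, C4B, C4A and SERPING1 in the sparse upper tail.

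To set the levels of different members side by side, CPM was divided by length, as CPM per kilobase of each gene's longest transcript in GENCODE release 29. The places of C4A and C4B are uncertain in both libraries, because their rows share reads. In the lncPSCA library the order was CD55 (9.41), CD46 (5.44), C4A (5.20), C1R (3.07), SERPING1 (3.03), C4B (2.49), C3 (0.929), C1S (0.470) and CFB (0.446 CPM per kilobase). The counting intervals of the neighbours CD46 and C4A, C1R and SERPING1, SERPING1 and C4B, and C1S and CFB overlapped in that library. In the control library the order was CD55 (10.4), CD46 (5.27), C1R (1.64), C4A (0.720), C1S (0.385), C4B (0.376), C3 (0.162), SERPING1 (0.149) and CFB (0.116 CPM per kilobase), with overlapping neighbours C1S and C4B, C3 and SERPING1, and SERPING1 and CFB. By this measure CD55 led in both libraries, above the median over genes of at least 1 CPM, which was 6.66 CPM per kilobase in lncPSCA and 6.59 in control. The lead over CD46 rests on the lengths used, 2892 bases for CD55 and 7826 for CD46. By CPM alone, CD46 (42.5 in lncPSCA and 41.2 in control) stood above CD55 (27.2 in lncPSCA and 30.1 in control). Which transcripts were expressed was not tested. SERPING1 was level with C1R in lncPSCA, whereas in control its level per length (interval 0.0598 to 0.306) lay under that of C1R (1.36 to 1.96).

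The list set by role gives the rest of the complement system. Of 52 other complement genes on it, 20 had no read in either library and 15 reached 1 CPM. C1RL and C5 were higher, no gene was lower and the other 13 were not called. Over all 15440 genes, 3.02% were higher and 0.596% were lower. The lists were chosen with earlier results of these data known, so nothing is read from this count. The median log2 ratio of the 15 was 0.22, beside -0.02 over all genes, and it turned to -0.09 over those with at least 5 CPM. C1RL, which encodes a C1r-like protease, had 82 reads in lncPSCA and 30 in control, a fold of 2.45 (1.60 to 3.86), and fell short of the rule when ratios were centred along mean expression. C5, whose cleavage starts the membrane attack complex, had 123 reads in lncPSCA and 45 in control, a fold of 2.45 (1.73 to 3.53). Both have few reads and lie near the 2-fold limit. C1RL shares 3021 bases with C1R on the same strand, so reads over the shared part may be assigned to either gene or to none.

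Among the other initiators, the genes of C1q, the recognition subunit that carries C1r and C1s, were not detected: C1QA, C1QB and C1QC had no read in either library, which by a 1-sided limit allows up to 3 counts, or 0.128 CPM in lncPSCA and 0.142 CPM in control. C2, the partner of C4 in the classical C3-cutting enzyme, had 70 reads in lncPSCA and 79 in control (0.795-fold, 0.568 to 1.11). MASP1, a protease of the lectin pathway, had 87 and 67 reads in lncPSCA and control (1.17-fold, 0.838 to 1.63), and COLEC11, a lectin that recruits such proteases, had 137 in lncPSCA and 167 in control (0.736-fold, 0.583 to 0.928). MASP2, with 26 reads in lncPSCA and 10 in control, and the scavenger lectin COLEC12, with 18 in lncPSCA and 11 in control, were under 1 CPM. None of these met the rule.

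CFD, the protease that activates factor B, was at 34.6 CPM in lncPSCA and 24.6 CPM in control (1.41-fold, 1.26 to 1.57). CFP, which encodes properdin, the stabiliser of the alternative enzyme, had 9 reads in lncPSCA and 10 in control. In the terminal pathway, C8G had 23 reads in lncPSCA and 20 in control, C6 had 1 in lncPSCA and 0 in control, and C7, C8A, C8B and C9 had no read in either library.

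None of the soluble regulators other than SERPING1 met the rule. CLU, or clusterin, was at 33.4 CPM in lncPSCA and 43.2 CPM in control (0.772-fold, 0.701 to 0.851). VTN, or vitronectin, had 11 reads in lncPSCA and 6 in control. CFI, the protease that needs CD46 as a cofactor, had 2 reads in lncPSCA and 1 in control.

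Among other membrane regulators, CD59, which blocks assembly of the membrane attack complex, was at 35.6 CPM in lncPSCA and 40.3 CPM in control (0.884-fold, 0.802 to 0.973). CSMD3, a large membrane protein with complement control modules, was at 73.2 and 53.4 CPM in lncPSCA and control (1.37-fold, 1.27 to 1.48). CSMD1, a relative of it, was at 28.7 CPM in lncPSCA and 28.8 CPM in control (0.997-fold, 0.892 to 1.11); its log2 ratio of -0.01 changed sign under 3 alternatives. SUSD4 had 62 reads in lncPSCA and 40 in control (1.39-fold, 0.920 to 2.12). No membrane regulator of this list met the rule. Of the receptors, ITGB2 had 90 reads in lncPSCA and 53 in control (1.52-fold, 1.07 to 2.18), and its partner ITGAM had 21 in lncPSCA and 37 in control (0.509-fold, 0.283 to 0.893). ITGAX had 14 reads in lncPSCA and 5 in control, C3AR1, the receptor for C3a, had 1 read in each library, and C5AR1, a receptor for C5a, had 5 in lncPSCA and 7 in control.

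**Figure D3:**
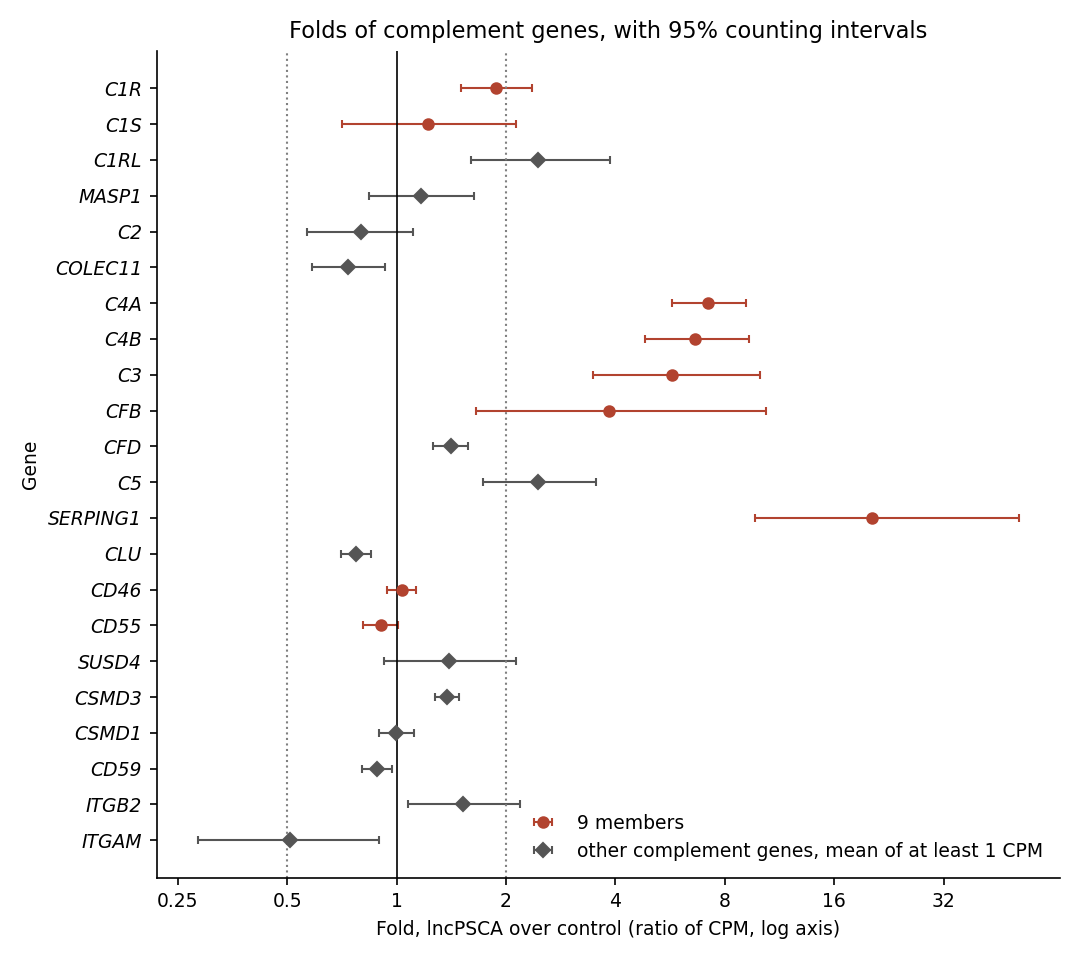
Fold of lncPSCA over control (log axis) with 95% counting intervals for the 9 members (circles) and 13 of the 15 other complement genes with a mean of at least 1 CPM (diamonds), ordered by role. Dotted lines mark 2-fold in each direction. SERPING1 (20.4), C4A (7.21), C4B (6.64) and C3 (5.73) lie farthest to the right. The membrane regulators run from 0.884 for CD59 to 1.39 for SUSD4.

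CFB, C4A and C4B lie in 1 cluster of genes on chromosome 6, and most genes between and beside them were near equal in both libraries. Leaving aside the members and the 2 genes antisense to C4, 8 genes from C2 to ATF6B reached 1 CPM. None of these 8 met the rule, and their folds ran from 0.795 for C2 to 1.21 for ATF6B. NELFE, on the opposite strand, whose 3′ end lies 0.003 kb from that of CFB in GENCODE release 29, had 2066 reads in lncPSCA and 2011 in control (0.922-fold, 0.867 to 0.981). STK19, which overlaps the start of C4A, had 662 reads in lncPSCA and 563 in control (1.06-fold, 0.942 to 1.18). TNXB, next beyond C4B among these genes, had 69 and 61 reads in lncPSCA and control (1.02-fold, 0.709 to 1.46). CYP21A1P, a pseudogene between C4A and C4B, was under 1 CPM, with 15 reads in lncPSCA and 3 in control (a ratio of 4.49, 1.27 to 24.2). The genes annotated antisense to the ends of C4A and C4B each overlap them by 2706 bases. C4B-AS1 had 86 reads in lncPSCA and 17 in control (4.54-fold, 2.68 to 8.15) and was higher. It was at 3.66 CPM in lncPSCA and 0.806 CPM in control, so it reached the minimum through the lncPSCA library alone. C4A-AS1, at a mean under 1 CPM, had 35 reads in lncPSCA and 1 in control (a ratio of 31.4, 5.28 to 1276). Whether strand was used in counting is not stated in the sources used here, so reads of C4 and of these antisense genes cannot be told apart.

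**Figure D4:**
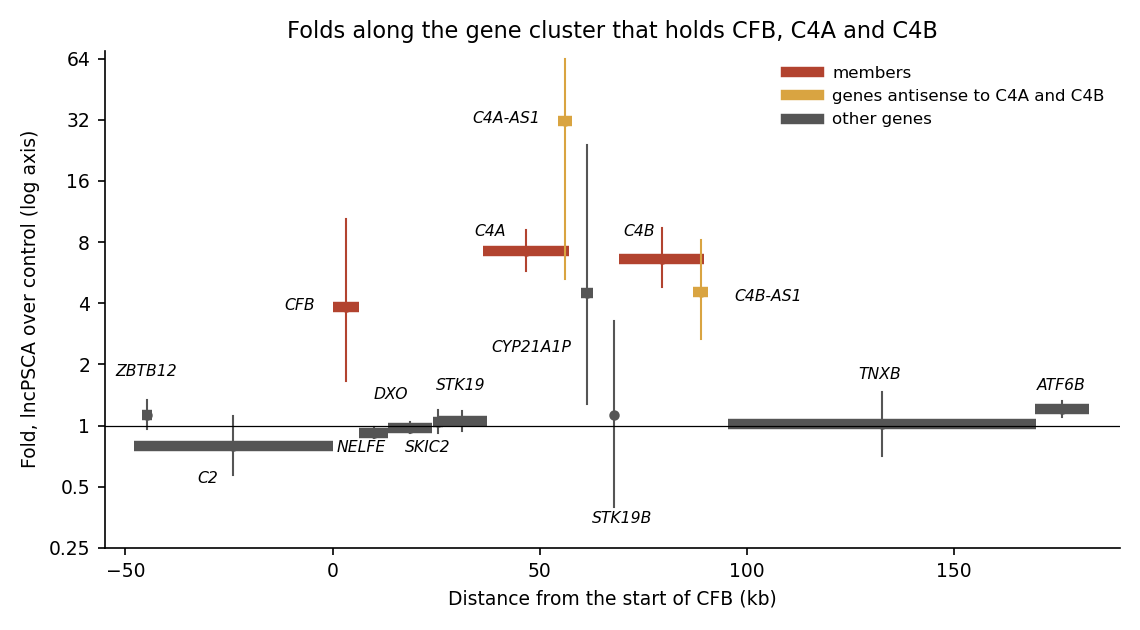
Fold of lncPSCA over control (log axis) for genes with at least 10 reads in all from C2 to ATF6B, drawn at their extent in kilobases from the start of CFB (GENCODE release 29, GRCh38); thin vertical lines are 95% counting intervals, that of C4A-AS1 drawn to 64 of its upper bound of 1276. C4A (7.21), C4B (6.64), CFB (3.85), the 2 antisense genes and, with a wide interval, CYP21A1P (4.49) stand above neighbours that lie near 1.

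Around the other members, a neighbour of SERPING1 was also higher. UBE2L6, which encodes the conjugating enzyme for the ubiquitin-like protein ISG15, lies 29.1 kb from SERPING1 and had 5349 reads in lncPSCA and 436 in control (log2 ratio 3.46, with an interval of the fold from 9.98 to 12.2). On the other side of SERPING1, CLP1 had 753 reads in lncPSCA and 1219 in control (0.554-fold, 0.506 to 0.608), short of the rule. CLSTN3, 37.1 kb from C1R, was higher, with 154 reads in lncPSCA and 66 in control (2.09-fold, 1.56 to 2.84). CD70, a ligand of the TNF family whose gene lies 73.6 kb from C3, was higher, with 50 reads in lncPSCA and 13 in control (3.45-fold, 1.85 to 6.93). CD70 was at 2.13 CPM in lncPSCA and 0.616 CPM in control, so it reached the minimum through the lncPSCA library alone. None of the measured neighbours taken for CD46 and CD55 met the rule. Over all 15440 genes, 3.02% were called higher. The share of neighbours called was not computed, so nothing is read from these calls against that background.

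For each member that met the rule, the gene with a symbol and at least 1 CPM whose log2 ratio was closest was looked up, over 2 libraries and 1 ratio per gene. SERPING1 (4.18) was closest to HERC6 (4.17), C4A (2.84) to IFI35 (2.85), C4B (2.70) to PARP12 (2.71) and C3 (2.46) to IL22RA1 (2.46). With 1 ratio per gene, likeness describes size alone.

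Markers of cell types that are major sources of complement were looked at beside these values. Of 6 hepatocyte markers none reached 1 CPM, with sums of 0.383 CPM in lncPSCA and 0.711 CPM in control, and TTR and SERPINA1 had no read in either library. Of 7 macrophage and leukocyte markers, 3 reached 1 CPM (CD14, CD68 and ITGAM), none met the rule, the sum was 4.72 CPM in lncPSCA and 5.78 CPM in control, and CD163 had no read. Of 3 endothelial markers, PECAM1 and CDH5 had no read and VWF had 13 reads in lncPSCA and 5 in control. The 7 fibroblast markers all reached 1 CPM, with sums of 3310 CPM in lncPSCA and 2979 CPM in control, most of them from COL3A1 and COL1A1. Of these 7, 4 had a log2 ratio above 0 and 3 below it (COL1A1 0.938-fold, DCN 0.947-fold and LUM 0.973-fold), and PDGFRB was the only one called (higher, 2.08-fold, 1.53 to 2.88). The part of these cell type markers in the result was not tested. In bulk RNA, a change in the share of cells that express a gene and a change in RNA per cell cannot be told apart.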

How the data were processed

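The authors deposited raw counts of reads per Ensembl gene, 1 column per library. TopHat2, HTSeq and the build hg19 are named, without versions or settings, per the submitters' processing notes; the sources used here do not state the annotation release, strand setting, treatment of multiply mapped reads, kit or read length. All rows name a gene, and 39699 of the 63677 (62.3%) matched a symbol.

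From these counts, library sizes were scaled with the trimmed mean of M values (edgeR 4.0.16; factors 1.02 for lncPSCA and 0.979 for control). Folds are ratios of CPM with exact Clopper-Pearson intervals, computed on how each gene's reads divide between the libraries. The log2 ratio adds a library-scaled pseudocount of 1, so it is too small for genes with few reads. Since PCR copies were not separated by molecular identifiers, intervals cover counting error only. The calculation was tested on simulated data. With 1 library per group no test was possible. The alternatives tried were scaling by DESeq2 1.42.0, by total counts and by upper quartile, other CPM minimums, pseudocounts and size limits, and centring by lowess (span 0.3).

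Members and lists were chosen with earlier results of these data known. Named genes were the 9 members, other complement genes with at least 1 CPM or 10 reads, C1 inhibitor targets of at least 1 CPM, overlapping genes, the 2 nearest measured genes on each side and the closest ratio. C1QA, C1QB, C1QC, C6, C7, C8A, C8B, C9, CFI, C3AR1, C5AR1 and CYP21A1P were named after their values were seen. Transcript lengths, overlaps and distances come from GENCODE release 29 (GRCh38), another build than the counts, matched by gene identifier; 97.1% of genes with at least 1 CPM had a length. The C4A and C4B comparison used coding sequences (Biopython 1.88) in place of the planned protein identities, which were not computed. Values of some other complement genes on the list are not reported here; they stay in the counts and medians.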

Additional observations from a re-analysis of the deposited data

How the results depend on the processing

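The direction and the call of C4A, C4B and their sum held under all 11 alternatives; the log2 ratio of the sum ran from 2.73 to 2.86. C3 (2.25 to 2.52) and SERPING1 (3.65 to 4.26) kept their calls except at a minimum of 5 CPM, which neither gene reaches. With that minimum, 2 members were higher and the members' median was 0.90. Without a minimum CFB also met the rule, and at a limit of 1.5-fold C1R did. No member was lower under any alternative. The median of the other complement genes was 0.22 and ran from -0.09, at a minimum of 5 CPM, to 0.46, without a minimum. CD46 turned to -0.15 when centred along transcript length. CSMD1 turned to 0.0089 with DESeq2 size factors, 0.056 with total counts and 0.016 when centred along mean expression. Of the other complement genes, 4 were higher and 1 was lower at 1.5-fold, 0 were higher at 4-fold or with a minimum of 5 CPM, and 1 was higher when centred along mean expression. Over all genes, 1624 were higher and 835 lower at 1.5-fold, 122 and 10 at 4-fold, 284 and 46 with a minimum of 5 CPM, and 150 were lower without a minimum. These counts move because the limit or the set of genes moves; for centring the cause was not tested. The ratios of CFB and SERPING1 rest on 7 control reads each. No paired analysis was possible because each group has 1 library.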

Other observations

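C1 inhibitor also inactivates proteases of the contact system, outside complement. Of 5 genes of that system and of fibrinolysis on the list (F11, F12, KLKB1, PLAT and KNG1), F12, which encodes coagulation factor XII, was the only one to reach 1 CPM. It had 1252 reads in lncPSCA and 1151 in control, or 53.3 and 54.6 CPM, a fold of 0.976 (0.900 to 1.06). KLKB1 had 2 reads in each library, PLAT had 7 in lncPSCA and 2 in control, and F11 and KNG1 had no read in either library. All 61 complement genes together, the 9 members included, took 0.0389% of the counts in lncPSCA and 0.0302% in control. The 9 members alone took 0.0140% in lncPSCA and 0.00839% in control, and the 52 others took 0.0250% in lncPSCA and 0.0218% in control. The choice of the members on this contrast bears on the total, so nothing is read from its difference.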
